A study of Mus musculus with 16 samples.

Results

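The response of trichostatin-treated mouse fibroblasts to dipyridyl was measured as the difference between 2 treatments in each of 4 lines of primary embryonic fibroblasts. It used 8 of the 16 arrays of the series, 4 from cells given trichostatin A and then dipyridyl (TSA_DP) and 4 from cells given trichostatin A and then ethanol vehicle (TSA). TSA was added at 100 ng/ml and dipyridyl at 100 uM after 30 min, and the cells were lysed 3 h later, having been kept in normal oxygen with 5% carbon dioxide at 37 °C. The other 8 arrays, from the same lines given ethanol and then dipyridyl (DP) or ethanol at both additions (EtOH), gave the response without TSA.

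The triCH1flox1 line came from embryos with the CH1 domain deleted in both alleles of p300 and in 1 allele of CBP, the other CBP allele being conditional. The triCH1flox2 line had CH1 deleted in both alleles of CBP and in 1 allele of p300, the other p300 allele being conditional. In the control class, flox1 had 1 conditional CBP allele and flox2 had 1 conditional p300 allele, each beside a normal allele. At passage 3 all 4 lines were infected with an adenovirus that expresses Cre, which removes conditional alleles, and were expanded at least 100-fold, so the control lines also carry a conditional allele exposed to Cre. There was 1 line of each genotype and 1 array for each line and treatment. The spread behind each error below is therefore that between lines of unlike genotype, with no repeat culture of a line.

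Dipyridyl chelates iron. The prolyl hydroxylases that mark HIF alpha subunits for destruction through VHL, and the asparaginyl hydroxylase that blocks the C-terminal activation domain of HIF, need iron and oxygen, so iron chelators stabilise HIF in normal oxygen. CBP and p300 are acetyltransferases and HIF coactivators that bind that activation domain through CH1. TSA inhibits histone deacetylases, and known HIF targets differ in how far they need deacetylase activity. Metallothioneins bind zinc and copper and are induced through the metal-responsive factor MTF1.

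All 15 fibroblast markers on the array had a mean signal of at least 200 over the 8 arrays, with summed signals of 226664 to 259384 on the TSA_DP arrays and 206498 to 260744 on the TSA arrays. Of the markers of other cells, 1 of 10 for macrophages, 1 of 10 for endothelium, 3 of 10 for epithelium, 0 of 8 for erythroid cells, 3 of 10 for neurons and glia and 1 of 10 for skeletal muscle reached that level, and the summed neural markers ran from 5261 to 9202 on TSA_DP arrays and from 5724 to 7674 on TSA arrays. The median signal of an array was 103 to 144.9 in TSA_DP and 122.1 to 146.4 in TSA, and the ratio of the 3' to the 5' Gapdh control was 0.909 to 1.15 in TSA_DP and 0.907 to 1.26 in TSA. The flox1 EtOH array stood apart with a Gapdh ratio of 2.59. It is not among the 8 arrays, but it enters every value given without TSA. On the 8 arrays Xist ran from 1751 to 5389 in triCH1flox1 and triCH1flox2 and did not exceed 111.3 in flox1 and flox2, so CH1 class and sex cannot be told apart. The barcodes put the arrays, all of 1 lot, in 2 series, 12 in the first and 4 in the second, and 1 pair in each setting was split between them. These were flox2 with TSA, whose TSA_DP array was in the second series and whose TSA array was in the first, and triCH1flox1 without TSA, whose DP array was in the second and whose EtOH array was in the first. In these pairs series and dipyridyl cannot be told apart. Leaving out the split pair gave 9 rises and 0 falls with TSA, and 119 rises and 7 falls without TSA. Crebbp, which encodes CBP, read 384.2 and 457.8 in TSA_DP cells of the 2 lines with a conditional CBP allele, and 624.8 and 673.6 in those of the other 2 lines. Whether its probe set lies in the deleted part is not given in the sources used here.

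Dipyridyl raised 17 genes in TSA-treated cells and lowered 3, out of 11481 genes tested. In limma with line as a block these were the genes with an adjusted p under 0.05, which is 0.148% of the genes tested for rises and 0.0261% for falls, and 740 genes had an unadjusted p under 0.05. The genes raised were led by Mt1 and Mt2, the zinc-binding metallothioneins, and the others were mostly known HIF targets: Bhlhe40, Ero1a, Bnip3, Pfkfb3, Ier3, Ddit4, Hk2, Plod2, Slc30a1, Wsb1, Pdia4, Higd1a, Adm, Slc2a1 and Fam162a. All 20 genes changed the same way in all 4 lines, against 7.46% of all genes that were higher in all 4 lines with dipyridyl and 7.73% that were lower. For 18 of the 20 the TSA_DP and TSA groups did not overlap, with Plod2 and Csnk2a1 as the exceptions. Over all genes 1.26% had every TSA_DP array above every TSA array and 1.45% had every one below. The 20 genes were chosen by a test on these same arrays, which favours a shared sign and groups apart. Both counts are therefore descriptions only and lend the calls no support.

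The number of genes raised rested on pooling the variance across genes of like signal and on pairing by line. With a common prior variance in place of the trend 0 genes rose and 0 fell (lowest adjusted p = 0.203, with 757 genes at an unadjusted p under 0.05), and without the line as a block 6 rose and 0 fell. Leaving out triCH1flox1 gave 51 rises and 15 falls, leaving out flox2 gave 9 and 0, leaving out flox1 gave 10 and 5, and leaving out triCH1flox2 gave 12 and 1.

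**Figure D1:**
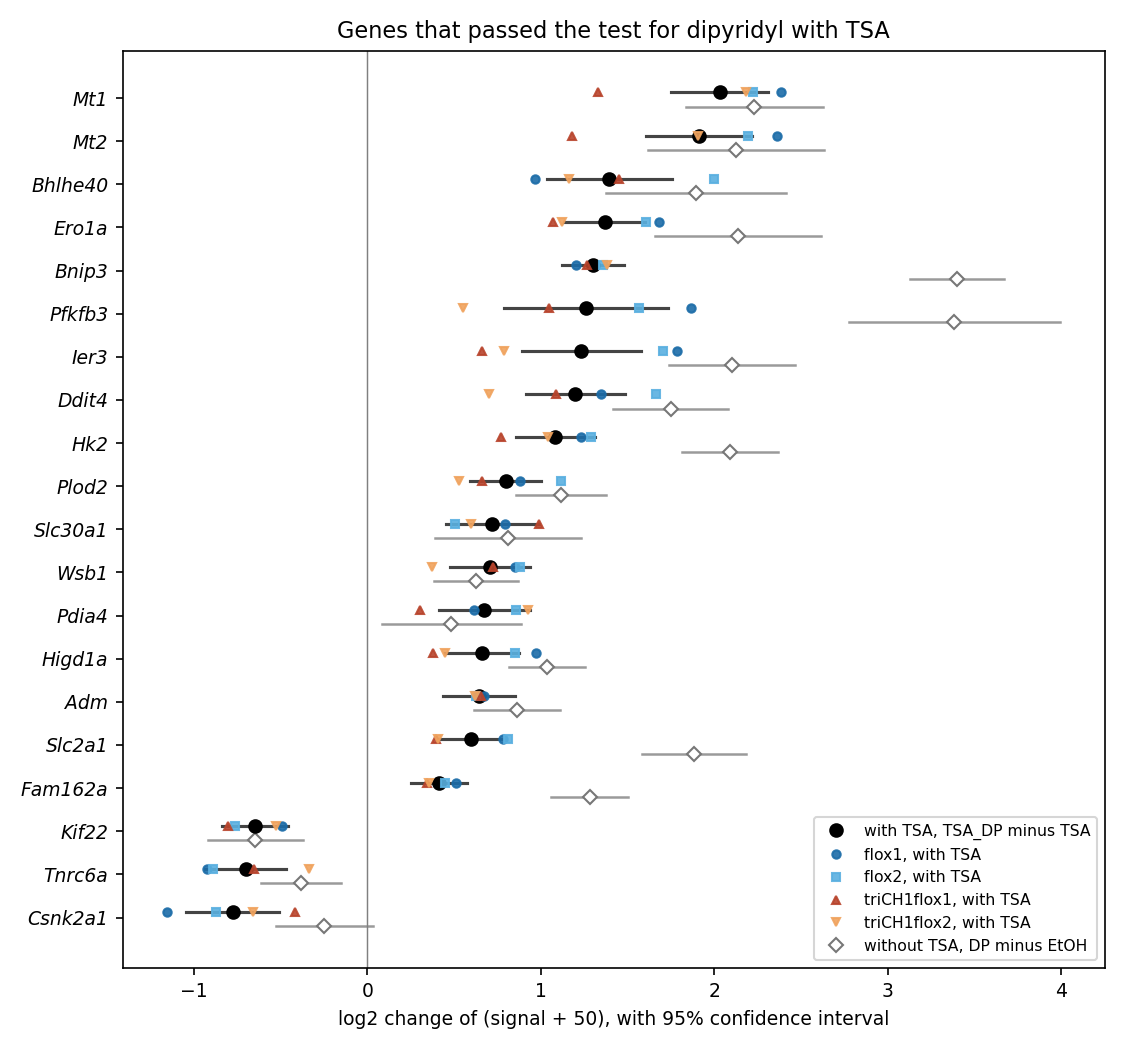
Log2 change of (signal + 50) for the 20 genes that passed the test with TSA, with black points and lines for the mean of 4 lines and its 95% confidence interval, coloured marks for each line, and open diamonds with grey lines for the change without TSA. Mt1 and Mt2 lie furthest right with TSA, at 2.03 and 1.91, close to their changes without TSA, whereas Bnip3 and Pfkfb3 lie far to the left of theirs.

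The metallothioneins gave the largest rises. Mt1 read 29297 in flox1, 23861 in flox2, 18039 in triCH1flox1 and 19677 in triCH1flox2 with TSA_DP, against 5576, 5067, 7142 and 4301 in the same lines with TSA. Every TSA_DP array lay above every TSA array, and triCH1flox1 had the smallest rise. The mean was 22719 ± 5024 in TSA_DP cells and 5521 ± 1201 in TSA cells (SD, n = 4 lines), a 4.08-fold difference on the log2(signal + 50) scale (log2 change 2.03 ± 0.13 SE, limma adjusted p = 2.41e-06). Mt2, which lies beside Mt1 on chromosome 8, read 18137, 14019.7, 8698 and 12262 with TSA_DP in the same order of lines, against 3485, 3028, 3811 and 3236 with TSA. Again triCH1flox1 showed the smallest difference and the groups did not overlap. Its log2 change was 1.91 ± 0.14 (SE, limma adjusted p = 1.21e-05). The probe set used for Mt1 is of a type that can bind transcripts of similar genes, and how far it also reads Mt2 was not tested. A second, dimmer Mt1 probe set rose by 2.48 with TSA.

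Slc30a1, which exports zinc from the cell and is another known MTF1 target, read 1283 and 1303 in flox1 and flox2 and 1565 and 1171 in triCH1flox1 and triCH1flox2 with TSA_DP, against 720.4, 902.7, 764.0 and 755.8 with TSA. The groups did not overlap, and the log2 change was 0.72 ± 0.12 (SE, limma adjusted p = 0.0358). Its adjusted p was 0.0957 without flox1, 0.154 without flox2, 0.251 without triCH1flox2 and 0.613 with the mean of its 2 probe sets. In the list of metallothioneins and zinc regulators 3 of 14 genes rose, beside 0.148% of all genes tested, and 0 fell. The median change was 0.04, beside 0.00126 over all genes tested. Mtf1 itself changed by 0.13, Mt3 by -0.62 and the zinc importer Slc39a14 by -0.06, none past the threshold.

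The RefSeq windows from 250 bases before to 50 after the start of these 3 genes are shown because these were the genes whose signal with both agents exceeded that with dipyridyl alone in every line. They are on GRCm38.p6, at chr8:94178839-94179138 on the plus strand for Mt1, chr8:94172368-94172667 on the plus strand for Mt2 and chr1:191906531-191906830 on the plus strand for Slc30a1. Capitals mark the core of the metal response element, searched on both strands as TGCACNC or TGCGCNC.
Mt1: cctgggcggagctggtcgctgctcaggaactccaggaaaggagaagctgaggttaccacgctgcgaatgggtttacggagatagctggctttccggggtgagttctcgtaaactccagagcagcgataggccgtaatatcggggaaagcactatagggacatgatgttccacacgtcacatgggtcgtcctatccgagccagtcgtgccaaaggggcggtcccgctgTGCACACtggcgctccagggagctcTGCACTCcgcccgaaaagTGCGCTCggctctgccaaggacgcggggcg
Mt2: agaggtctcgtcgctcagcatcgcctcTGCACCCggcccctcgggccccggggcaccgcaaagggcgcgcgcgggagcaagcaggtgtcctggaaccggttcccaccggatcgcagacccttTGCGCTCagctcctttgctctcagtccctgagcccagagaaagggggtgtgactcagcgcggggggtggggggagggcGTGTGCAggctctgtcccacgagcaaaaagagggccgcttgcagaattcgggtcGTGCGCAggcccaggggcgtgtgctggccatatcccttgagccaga
Slc30a1: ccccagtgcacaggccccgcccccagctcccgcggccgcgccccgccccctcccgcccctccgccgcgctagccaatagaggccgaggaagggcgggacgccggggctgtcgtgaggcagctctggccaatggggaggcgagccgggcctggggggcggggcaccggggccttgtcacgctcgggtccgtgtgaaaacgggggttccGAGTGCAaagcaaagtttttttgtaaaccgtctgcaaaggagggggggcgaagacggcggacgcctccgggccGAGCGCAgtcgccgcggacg
These windows hold 3 matches in Mt1, 4 in Mt2 and 2 in Slc30a1. The Mt1 window also holds 1 HIF core, ACGTG on either strand, which is not marked, and the Mt2 and Slc30a1 windows hold 0. The metal response core was found in the windows of 10 of the 15 raised genes that had a window, and in 25.7% of all 32851 windows searched. The 15 genes had 17 windows, and a gene counted if any of its windows matched, whereas the background counts single windows. A match is a description of letters and not of binding.

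Most of the other genes that rose were HIF targets. Bnip3, a mitochondrial protein of mitophagy and cell death, read 6277, 6068, 6216 and 6165 with TSA_DP in flox1, flox2, triCH1flox1 and triCH1flox2, against 2699, 2339, 2555 and 2337 with TSA. The 4 lines hardly differed and the log2 changes by line ran from 1.2025 to 1.38. The mean change was 1.30 ± 0.08 (SE, limma adjusted p = 2.41e-06). Ddit4, an inhibitor of mTORC1 signalling, read 4773, 3998, 2966 and 2229 with TSA_DP in the same order, against 1846, 1228, 1372 and 1352 with TSA. The control lines lay above the triCH1 lines with TSA_DP, and the log2 change was 1.199 ± 0.13 (SE, limma adjusted p = 0.000809). Ier3, a stress gene that modulates apoptosis, read 9330 and 8099 in flox1 and flox2 and 5207 and 4076 in triCH1flox1 and triCH1flox2 with TSA_DP, against 2672, 2451, 3279 and 2341 with TSA. Its groups did not overlap (log2 change 1.23 ± 0.16 SE, limma adjusted p = 0.00334).

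Bhlhe40, a transcriptional repressor of the circadian clock, read 1186, 1368, 1116 and 895.4 with TSA_DP in flox1, flox2, triCH1flox1 and triCH1flox2, against 581.5, 305.7, 375.9 and 373.2 with TSA. The flox1 TSA array was the highest of its group and the flox2 TSA array the lowest, and the change by line ran from 0.97 in flox1 to 2.00 in flox2. The mean log2 change was 1.39 ± 0.17 (SE, limma adjusted p = 0.0015). Ero1a, the oxidase that forms disulfide bonds in the endoplasmic reticulum, read 8849, 8181, 5042 and 5979 with TSA_DP against 2729, 2654, 2373 and 2726 with TSA. The 4 TSA arrays were close together and the triCH1 lines were the lower ones with TSA_DP (log2 change 1.37 ± 0.11 SE, limma adjusted p = 2.05e-05). Its 2 other probe sets rose by 0.78 and 1.51. Pdia4, a disulfide isomerase of the same compartment, rose by 0.67 (limma adjusted p = 0.0477), a call kept in 2 of 15 alternative settings.

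The windows of Bnip3, at chr7:138909457-138909756 on the minus strand, and Ero1a, at chr14:45318523-45318822 on the minus strand, are shown as those of the HIF targets with the lowest adjusted p. Capitals mark the HIF core, ACGTG on either strand.
Bnip3: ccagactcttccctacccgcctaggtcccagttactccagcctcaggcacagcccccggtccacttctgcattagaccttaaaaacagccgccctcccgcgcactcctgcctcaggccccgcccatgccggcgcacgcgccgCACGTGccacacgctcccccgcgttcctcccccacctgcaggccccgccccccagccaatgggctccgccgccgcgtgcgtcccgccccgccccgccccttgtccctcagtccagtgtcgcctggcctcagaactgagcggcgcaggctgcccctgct
Ero1a: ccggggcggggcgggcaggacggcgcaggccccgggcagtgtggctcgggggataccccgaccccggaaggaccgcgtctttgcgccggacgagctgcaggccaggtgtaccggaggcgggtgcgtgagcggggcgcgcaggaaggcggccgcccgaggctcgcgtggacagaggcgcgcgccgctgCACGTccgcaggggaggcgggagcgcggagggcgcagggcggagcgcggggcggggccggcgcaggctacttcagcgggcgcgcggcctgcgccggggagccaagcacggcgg
In Bnip3 the matches on the 2 strands overlap in a CACGTG, which is also an E-box, and Ero1a has 1 match. The Ero1a window also holds 2 metal response cores, which are not marked, and the Bnip3 window holds 0. The HIF core was found in the windows of 11 of the 15 raised genes with a window and in 19.6% of all windows. The E-box CACGTG, which contains that core, was found in 3 of the 15 and in 7.15% of all windows. As above, the raised genes were counted by gene and the background by window.

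Among genes of glucose use, Hk2, the hexokinase that traps glucose in the cell, read 4037, 3786, 3252 and 2929.5 with TSA_DP in flox1, flox2, triCH1flox1 and triCH1flox2, against 1692, 1521, 1884 and 1396 with TSA. The groups did not overlap (log2 change 1.08 ± 0.11 SE, limma adjusted p = 0.00021). Slc2a1, the basal glucose transporter, read 12486, 12311, 10993 and 9433 with TSA_DP against 7248, 7004, 8332 and 7108 with TSA, and its log2 change was 0.60 ± 0.09 (SE, limma adjusted p = 0.00832). By line the change was 0.78 in flox1, 0.81 in flox2, 0.40 in triCH1flox1 and 0.41 in triCH1flox2. Pfkfb3, which makes the activator of phosphofructokinase, read 824.7, 837.5, 329.4 and 398.4 with TSA_DP against 190.5, 249.6, 133.5 and 255.5 with TSA. Its change ran from 1.86 in flox1 to 0.55 in triCH1flox2 (mean 1.26 ± 0.22 SE, limma adjusted p = 0.0378), and its other, dimmer probe set changed by 0.28. With the mean of both its change was 0.77 (limma adjusted p = 0.792).

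The remaining genes rose by 0.80 or less on the probe sets used. Plod2, an iron-dependent lysyl hydroxylase of collagen, rose by 0.80 (limma adjusted p = 0.00143), with 12049, 8818, 8541 and 6255 in TSA_DP cells of flox1, flox2, triCH1flox1 and triCH1flox2, against 6514, 4046, 5380 and 4324 in TSA cells. Every line rose, but the triCH1flox2 TSA_DP array lay below the flox1 TSA array. Adm, the vasodilator peptide adrenomedullin, changed by 0.67, 0.62, 0.66 and 0.62 in the same 4 lines and averaged 2454 ± 380 in TSA_DP cells and 1554 ± 255 in TSA cells (SD, n = 4). Higd1a, a mitochondrial protein of respiratory supercomplexes, rose by 0.66, Wsb1, a subunit of a ubiquitin ligase, by 0.71, and Fam162a, a mitochondrial HIF target, by 0.41. The 2 dimmer probe sets of Higd1a rose by 1.58 and 1.10, each in all 4 lines, and the mean of its probe sets by 1.11. Fam162a kept its call in 4 of 15 alternative settings, Slc30a1 in 5, Pfkfb3 in 8, Slc2a1 and Higd1a in 10, and Mt1, Mt2, Bhlhe40, Ero1a, Bnip3 and Hk2 in 14.

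**Figure D2:**
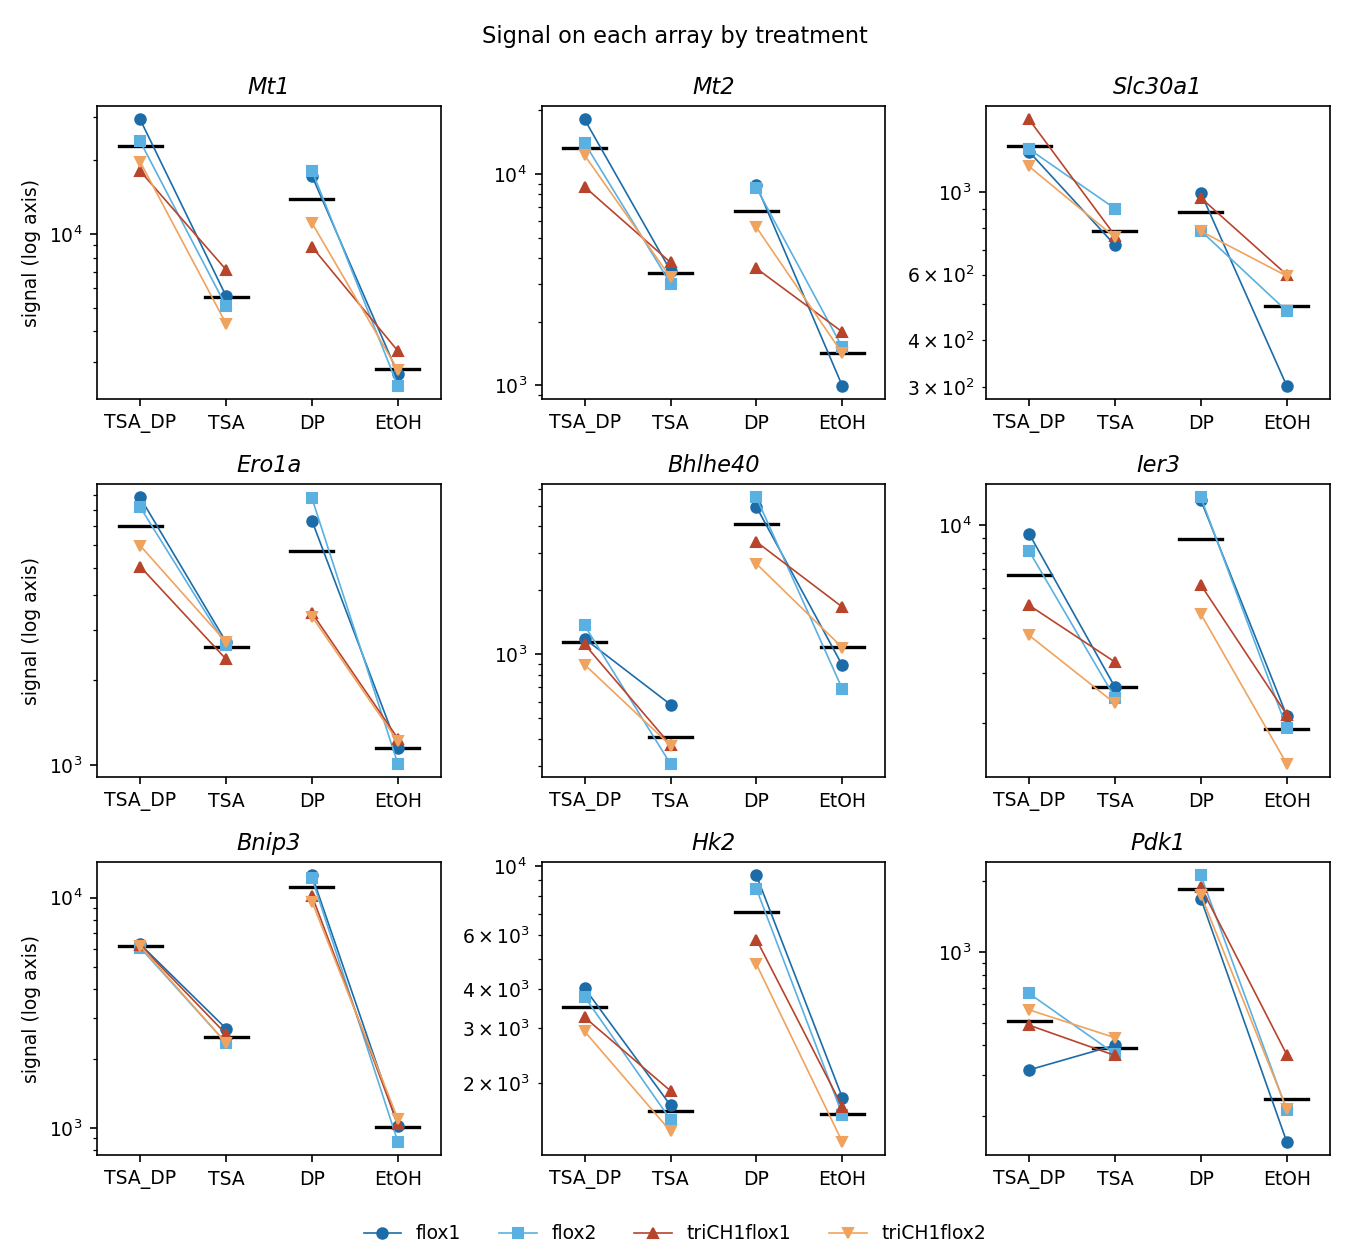
Signal (log axis) of 9 genes on all 16 arrays, by treatment, with lines joining the TSA_DP to the TSA array and the DP to the EtOH array of a line and black bars at group means. In Mt1, Mt2 and Slc30a1 the TSA_DP arrays lie above the DP arrays in every line, in Bhlhe40, Bnip3 and Hk2 they lie below them in every line, and Pdk1 has little separation of TSA_DP from TSA.

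Several well known HIF targets did not pass the test with TSA. Vegfa, the angiogenic growth factor, read 1342, 1215, 973.9 and 575.4 with TSA_DP in flox1, flox2, triCH1flox1 and triCH1flox2, against 832.5, 533.7, 522.1 and 567.8 with TSA. It was higher in all 4 lines, but by only 0.02 in triCH1flox2, and the groups overlapped (log2 change 0.66, 95% confidence interval 0.30 to 1.01, limma adjusted p = 0.342). The other, dimmer Vegfa probe set changed by 0.04. Ankrd37, a nuclear ankyrin-repeat protein, read 713.2 and 882.4 in the control lines and 225.4 and 234.4 in the triCH1 lines with TSA_DP, against 157.8, 266.8, 146.7 and 239.8 with TSA in the same order. Only the control lines separated from TSA, and the mean change of 0.97 had an adjusted p of 0.515 in limma. Ndrg1, a stress-response gene, changed by 1.18 and 1.22 in the control lines and by 0.14 and 0.70 in the triCH1 lines (limma adjusted p = 0.125). The Ndrg1 groups did not overlap, and its other probe sets rose by 0.66 to 1.48. Glycolytic enzymes of high signal moved little: Pgk1 by 0.31 (limma adjusted p = 0.102) and Ldha by 0.28 (limma adjusted p = 0.347), each higher in all 4 lines with groups that did not overlap. None of these genes passed the test of whether the change differed with and without TSA. The limma adjusted p of that difference was 0.178 for Vegfa, 0.0734 for Ankrd37, 0.47 for Ndrg1, 0.331 for Pgk1 and 0.475 for Ldha.

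Among the iron and oxygen dependent dioxygenases 1 of 28 rose with TSA, which was Plod2, and 0 fell, with a median change of 0.04. Without TSA 10 rose and the median was 0.59. Over all genes tested 0.148% rose with TSA and 1.07% without. Egln1, the main HIF prolyl hydroxylase, read 2136, 2317, 2383 and 2273 with TSA_DP in flox1, flox2, triCH1flox1 and triCH1flox2, against 1524, 1658, 1560.3 and 1606 with TSA. The groups did not overlap and the 4 lines were alike, and the change of 0.51 did not pass the threshold (limma adjusted p = 0.0692). Egln3, a HIF prolyl hydroxylase that is itself a HIF target, changed by 0.46 (limma adjusted p = 0.654). The collagen prolyl hydroxylase subunits P4ha1 and P4ha2 changed by 0.31 and 0.33 and the histone demethylase Kdm3a by 0.62, none past the threshold. Tfrc, the transferrin receptor whose mRNA is stabilised when iron is low, averaged 5285 ± 403 in TSA_DP cells and 3859.5 ± 484 in TSA cells (SD, n = 4), higher in all 4 lines with groups that did not overlap (log2 change 0.45, limma adjusted p = 0.0522). It was chosen after its value was seen, and 0 of the 21 iron-handling genes passed.

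Over all genes tested 0.148% rose with TSA and 1.07% rose without TSA. The lists set beside these shares were written with earlier results of these data known. Of HIF targets of glucose uptake and glycolysis 3 of 23 rose with TSA and 0 fell, with a median log2 change of 0.16. Without TSA 15 of the 23 rose, with a median of 1.07. In the list of other HIF targets, 8 of 33 rose with TSA and 0 fell, with a median of 0.38, while 25 of 33 rose without TSA with a median of 1.75. Both medians with TSA lay above the 0.00126 of all genes tested, and both were below the median without TSA in each line. In the other HIF targets the median with TSA was 0.51 in flox1, 0.45 in flox2, 0.44 in triCH1flox1 and 0.25 in triCH1flox2, and without TSA it was 1.97, 1.77, 1.05 and 1.13. In the glycolytic list it was 0.29, 0.19, 0.11 and 0.24 with TSA and 0.95, 1.22, 0.65 and 0.99 without TSA. Of 18 HIF subunits and coactivators, 0 passed with TSA. Hif1a read 6787 ± 399 in TSA_DP cells and 6758 ± 324 in TSA cells (SD, n = 4), Crebbp changed by -0.13 (95% confidence interval -0.47 to 0.21) and Ep300 by 0.24 (-0.18 to 0.67). The 2 other Crebbp probe sets that passed the filter changed by -0.60 and -0.39, each lower in all 4 lines, and the mean of its probe sets by -0.37 (limma adjusted p = 0.8002). The levels of both genes were lower with TSA alone on the probe sets used. Crebbp averaged 600.95 with TSA and 1846 with EtOH (log2 change -1.56), and Ep300 302 and 989.9 (-1.59). That difference was not tested.

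**Figure D3:**
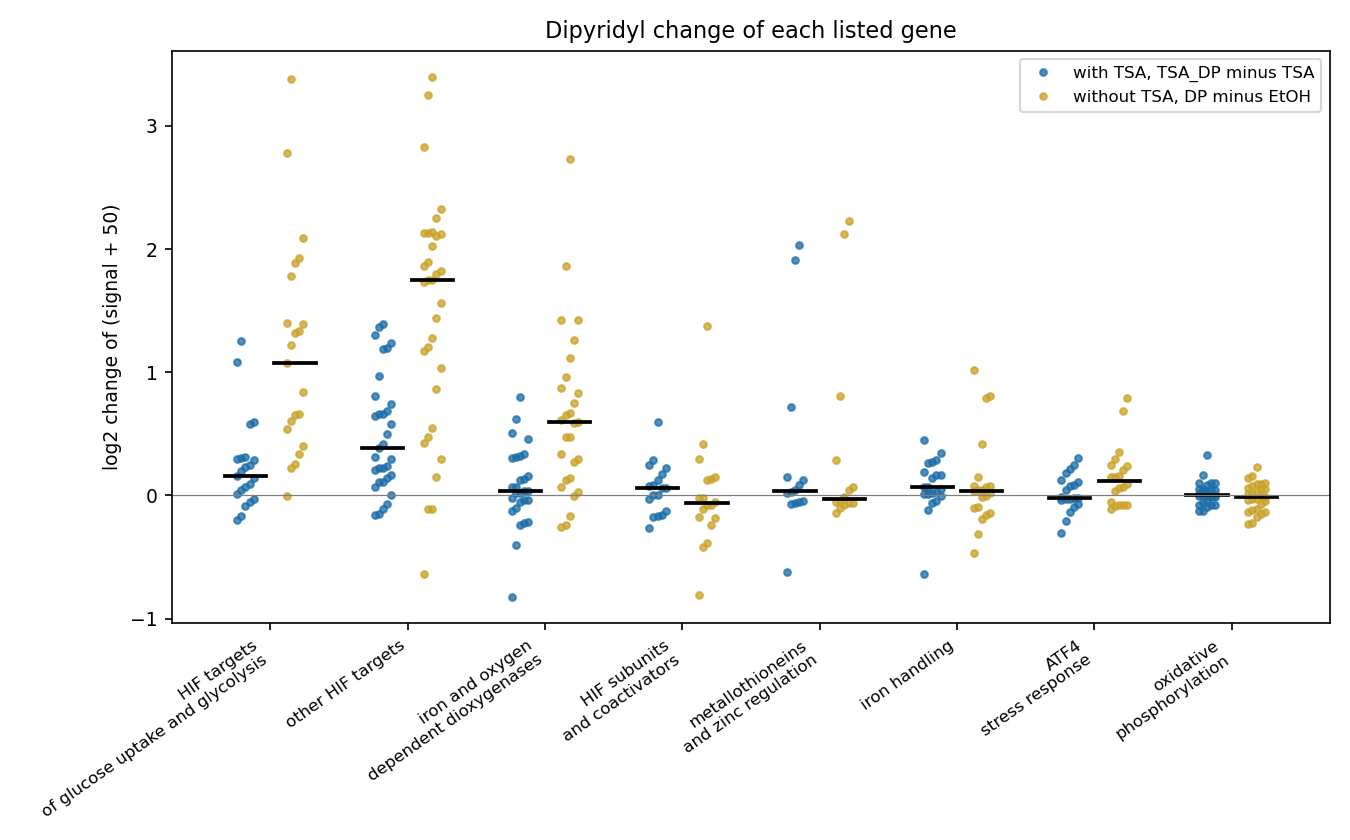
Log2 change of (signal + 50) by dipyridyl for each tested gene of 8 lists, with TSA on the left of each pair and without TSA on the right, and black bars at the medians. The medians of the glycolytic and other HIF targets are 0.16 and 0.38 with TSA and 1.07 and 1.75 without, while Mt1 and Mt2 stand near 2 in both columns of the metallothionein list.

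Without TSA, dipyridyl raised 123 genes (1.07% of those tested) and lowered 6 (0.0523%). Of the 123, 15 (12.2%) also rose with TSA, 64 (52%) were higher in all 4 lines with TSA and 109 (88.6%) had a change above 0 with TSA. Their median log2 change was 0.30 with TSA (quartiles 0.11 and 0.50) and 1.15 without TSA, beside 0.00126 and -0.03 over all genes. These 123 were chosen by their change without TSA, which raises that median but not the one with TSA, since the responses with and without TSA share no array. Of the 17 genes raised with TSA 15 had risen without it. The other 2, Slc30a1 (0.81 without TSA, limma adjusted p = 0.0804) and Pdia4 (0.48, limma adjusted p = 0.45), were not told apart between the 2 settings by the direct test, with differences of -0.09 (95% confidence interval -0.57 to 0.39) and 0.19 (-0.33 to 0.71).

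**Figure D4:**
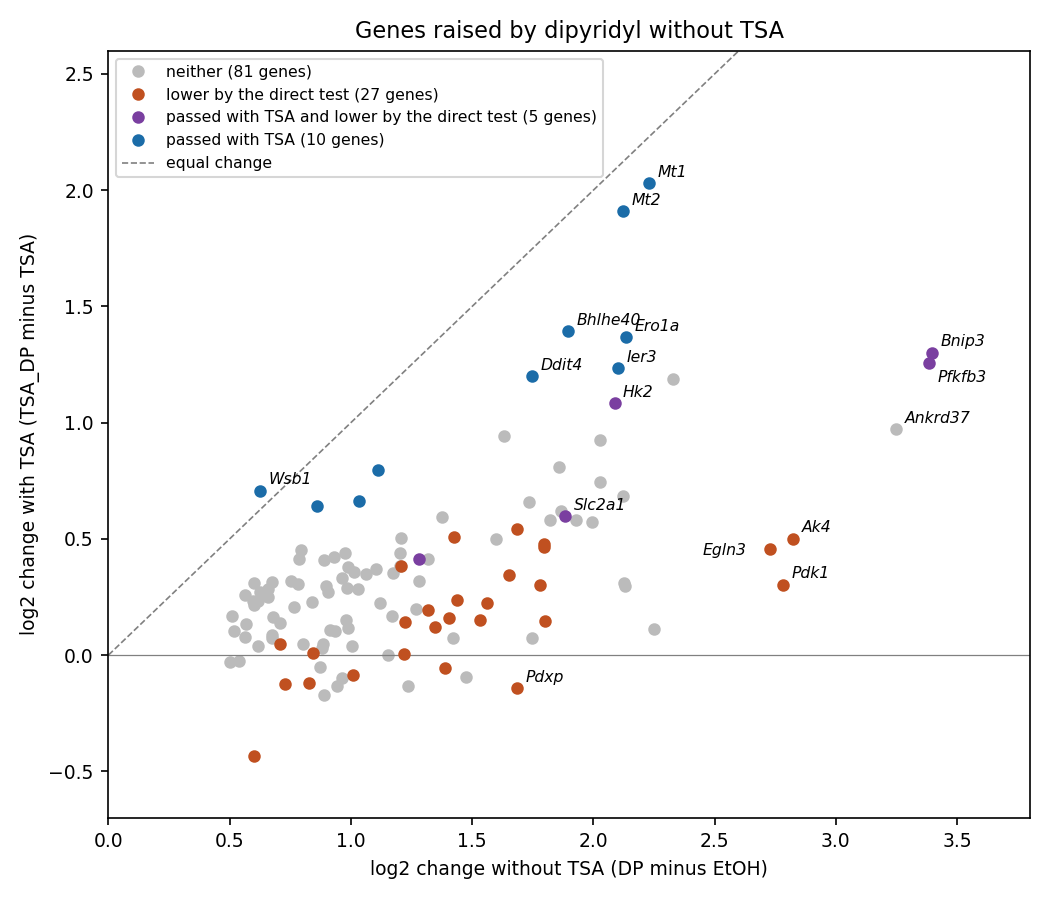
The 123 genes raised by dipyridyl without TSA, with the log2 change without TSA on the horizontal axis and that with TSA on the vertical axis, and a dashed line at equal change. Mt1, Mt2 and Wsb1 lie nearest the line among the 10 genes in blue, 27 genes in orange and 5 in purple were lower with TSA by the direct test, and 81 in grey passed neither test.

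The direct test, the change with TSA minus the change without it in a fit over all 16 arrays, called 32 genes lower (0.279% of genes tested) and 0 higher (0%), with 689 genes at an unadjusted p under 0.05. The count was 12 with no variance trend, 13 without the line as a block, 9 without flox2 and 20 without triCH1flox2. All 32 were among the 123 raised without TSA, but both calls use the same DP and EtOH arrays, so this overlap is a description only. Of the 32, 5 still rose with TSA: Bnip3, Pfkfb3, Hk2, Slc2a1 and Fam162a. The largest difference among the 32 was in Pdk1, the kinase that shuts pyruvate dehydrogenase, which read 314.2, 665.7, 487.4 and 566.5 in TSA_DP cells of flox1, flox2, triCH1flox1 and triCH1flox2 against 400.1, 367.7, 362.0 and 431.0 in TSA cells, while the same lines read 1686, 2120, 1889 and 1750 with DP against 154.9, 211.5, 364.8 and 214.2 with EtOH. With TSA the groups overlapped and flox1 moved down, whereas without TSA all 4 lines rose several-fold. The difference of the changes was -2.48 (95% confidence interval -3.03 to -1.93, limma adjusted p = 3.73e-05).

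Ak4, a mitochondrial adenylate kinase, averaged 766.2 ± 33.6 in TSA_DP cells and 530.3 ± 78.8 in TSA cells, and 3733 ± 121 in DP cells and 499.5 ± 158 in EtOH cells (SD, n = 4 each), a difference of -2.32 (limma adjusted p = 1.05e-05). Egln3 differed by -2.27 (limma adjusted p = 0.0105), and without TSA its signal reached 3757 and 4244 in the control lines and 797.0 and 609.4 in the triCH1 lines. Bnip3 differed by -2.10 (95% confidence interval -2.38 to -1.81, limma adjusted p = 2.11e-08) although it kept a rise of 1.30. Its DP arrays read 9598 to 12479.7 against 868.4 to 1093 for EtOH, so in all 4 lines TSA lay above EtOH and TSA_DP lay below DP. Pfkfb3 differed by -2.13, Slc2a1 by -1.29, Hk2 by -1.005 and Fam162a by -0.87.

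Other genes among the 32 changed little with TSA. Pdxp, a phosphatase of pyridoxal phosphate, changed by -0.14 with TSA and 1.69 without, Gys1, the muscle-type glycogen synthase, by -0.05 and 1.39, Stc2, a secreted glycoprotein, by 0.15 and 1.7998, and Tbl2 by 0.15 and 1.53. Slc16a3, the lactate exporter, changed by 0.30 and 1.78. In all, 10 of 23 glycolytic HIF targets, 7 of 33 other HIF targets and 2 of 28 dioxygenases were lower by the direct test, beside 0.279% of all genes. Many members of these lists had risen without TSA, and both calls use the same DP and EtOH arrays, so these counts are a description only. Of the 15 alternative settings, Bnip3, Pdk1, Ak4 and Pdxp passed the direct test in 15, Tbl2 in 13, Egln3 in 11, Slc16a3 in 10, and Pfkfb3, Stc2 and Gys1 in 9. Without flox2 the adjusted p in limma was 0.184 for Egln3 and for Slc16a3, 0.336 for Stc2, and 0.224 for Pfkfb3 and for Gys1. The Pfkfb3 difference was -0.92 with the mean of its probe sets (limma adjusted p = 0.716).

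Mt1 and Mt2 differed by -0.20 (95% confidence interval -0.73 to 0.33) and -0.21 (-0.88 to 0.45) between the 2 settings, Slc30a1 by -0.09 and Wsb1 by 0.08, and neither direction was called. Their sign is not settled: the Mt1 difference was 0.63 with the mean of its probe sets and the Mt2 difference was 0.06 without the flox1 EtOH array. Ero1a differed by -0.77 (95% confidence interval -1.34 to -0.19, limma adjusted p = 0.605), Ier3 by -0.87, Ddit4 by -0.55 and Bhlhe40 by -0.50, none past the threshold. The width of these intervals does not allow the changes to be called alike.

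The levels with both agents were compared with those after dipyridyl alone line by line, with no test. The counts below cover the 17 raised genes only. They were not made over all genes, so they do not set these 17 apart from other genes. In 3 of the 17 raised genes, Mt1, Mt2 and Slc30a1, the TSA_DP array was above the DP array in all 4 lines. Mt1 averaged 22719 with TSA_DP and 13818 with DP, Mt2 13279 and 6654, and Slc30a1 1330.3 and 882.5. In 10 of the 17, the TSA_DP array was below the DP array in all 4 lines, as for Bhlhe40 (1141 with TSA_DP and 4112 with DP) and Adm (2454 and 5552). TSA alone gave a signal above EtOH in all 4 lines for 9 of the 17 genes, among them Mt1 (5521 with TSA and 2798 with EtOH) and Bnip3 (2482 and 1004.5). It gave one below EtOH in all 4 lines for Adm, Bhlhe40 and Ddit4. The array scaling sets each array to the same trimmed mean, and total RNA per cell was not measured. In bulk RNA of a culture, fewer cells with a transcript and less of it per cell cannot be told apart.

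The change with TSA was also compared between the CH1 classes. The difference triCH1 minus control, 2 lines against 2, was below 0 for 15 of the 17 raised genes with a median of -0.39, for 75 of the 123 genes raised without TSA (61%) with a median of -0.13, and for 51.8% of all genes with a median of -0.02. None of the 17 passed the test of that difference. Ier3 came nearest with -1.02 (95% confidence interval -1.37 to -0.68, limma adjusted p = 0.0624). Mt2 differed by -0.73, Ero1a by -0.55 and Ddit4 by -0.61, while Bnip3 differed by 0.04 (95% confidence interval -0.31 to 0.40) and Adm by -0.01 (-0.42 to 0.40). Ppp1r3c, a glycogen-targeting phosphatase subunit, read 1193 and 969.1 in the control lines and 283.6 and 294.6 in the triCH1 lines with TSA_DP, against 162.7, 272.9, 217.3 and 243.0 with TSA, a difference of -1.83 (limma adjusted p = 0.535).

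Over all genes 2 (0.0174%) passed that test as higher in triCH1 and 0 (0%) as lower, with 791 at an unadjusted p under 0.05. They were Kpnb1, the nuclear import receptor, with 13401 and 10042 in the triCH1 lines and 8282 and 4993 in the control lines with TSA_DP, against 7113 and 5191 in triCH1 and 10716 and 8545 in control lines with TSA (difference 1.497, limma adjusted p = 0.00144), and Spin1, a reader of histone methylation (difference 1.24, limma adjusted p = 0.0171). Each rested on 1 of 4 probe sets, and with the mean of the probe sets 0 genes passed.

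The 3 genes that fell with TSA had the same limit. Csnk2a1, a catalytic subunit of casein kinase, read 944.7, 1019, 1981 and 1037 with TSA_DP in flox1, flox2, triCH1flox1 and triCH1flox2, against 2162, 1904, 2664 and 1665 with TSA. Every line fell, but the triCH1flox1 TSA_DP array lay among the TSA arrays (log2 change -0.78, limma adjusted p = 0.0185). Its 4 other probe sets that passed the filter changed by -0.02 to 0.03. Tnrc6a, a component of miRNA-induced silencing, fell by 0.70 (limma adjusted p = 0.0132), and its 6 other probe sets changed by -0.36 to 0.04. Kif22, a mitotic kinesin that binds chromosomes, fell by 0.65 (limma adjusted p = 0.00565) with TSA and by 0.65 without it, and its 2 other probe sets changed by -0.08 and -0.09 with TSA. With the mean of the probe sets of a gene 0 genes fell.

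In the other lists 0 genes passed with TSA. These were the ATF4 stress response (20 tested, median -0.02), NRF2 targets (17, -0.01), heat shock genes (12, 0.03), p53 targets (19, -0.06), immediate early genes (27, 0.13), NF-kB targets (20, -0.02), TGF-beta and fibroblast activation (20, 0.02), mitosis (22, -0.04), DNA replication (26, 0.07), cholesterol synthesis (17, -0.04) and oxidative phosphorylation (28, 0.005). Of these, 2 p53 targets, 2 immediate early genes, 2 DNA replication genes and 1 NF-kB target rose without TSA, beside 1.07% of all genes tested. In the NF-kB list 1 gene fell without TSA, beside 0.0523% of all genes. It was the chemokine Ccl7 (-1.10 without TSA, limma adjusted p = 0.0292, and 0.18 with TSA). Cdkn1a, the p53-induced inhibitor of cyclin-dependent kinases, changed by 0.10 with TSA and 0.52 without, and the replication licensing factor Cdc6 by 0.44 and 0.98. Atf4, Ddit3 and Trib3, which mark the unfolded protein and amino acid responses, changed by 0.11, 0.18 and -0.31 with TSA.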

How the data were processed

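Total RNA of 16 fibroblast cultures was hybridised to Affymetrix mouse arrays. Per the labels, each deposited intensity is a probe set's signal from the Affymetrix statistical algorithm after scaling, so that the trimmed mean of each array is 500, which the values met. Precision is limited by the number of arrays. Of 45101 probe sets, 34945 carried a single symbol in the platform annotation. Values were used as log2(signal + 50), on the 19895 with a signal of at least 200 on at least 2 arrays, and the brightest probe set stood for a gene (11481 genes). This scale understates changes of dim genes. The limma package (3.58.1, R 4.3.3) fitted models with a block for line and a variance trend, on the 8 arrays with TSA, the 8 without, or all 16, and were tested on simulated data; p values were adjusted by Benjamini and Hochberg. The line pairs the arrays: residuals of the same line correlated at 0.16 to 0.29, those of different lines at -0.21 to 0.00. Genes were named by rank, with a panel of HIF targets and up to 4 members of each list with a call. Other list members named in the text were chosen after their values were seen. Members and the 24 gene lists were chosen with earlier results of these data known. Figures used Python 3.11.15 and matplotlib 3.10.9.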

Additional observations from a re-analysis of the deposited data

Results flagged for a closer look

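Among 98 groups of 4 arrays of the named genes, 4 had an array whose gap to its nearest neighbour, divided by the range of the group, passed Dixon's 95% critical value for 4 samples, and chance gives about 1 in 20. The Csnk2a1 signal of the triCH1flox1 TSA_DP array was the highest of its group (1981 against 944.7 to 1037 for the others, ratio 0.876). The Pgk1 signal of the flox1 TSA_DP array was the highest of its group (17349 against 16088 to 16278, ratio 0.845). The Pdxp signal of the triCH1flox2 TSA_DP array was the lowest of its group (454.1 against 679.3 to 689.3, ratio 0.964), and that array makes up most of the Pdxp change of -0.14. The Slc16a3 signal of the triCH1flox2 TSA array was the lowest of its group (604.7 against 896.0 to 912.4, ratio 0.955).

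The change by dipyridyl with TSA differed between the CH1 classes for Kpnb1 (triCH1 minus control 1.497) and Spin1 (1.24), with rises in both triCH1 lines and falls in both control lines, on 1 of 4 probe sets each. The change was lower with TSA than without it for 32 genes by the direct test.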

How the results depend on the processing

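The pseudocount, the filter on low signals, quantile normalization and the fits over all 16 arrays gave 13 to 19 rises with TSA, against 17, and 13 to 17 of these were among the 17. Counts that moved by over 1.5 times were these. When a gene's probe sets were averaged, 0 genes fell with TSA, 2 fell without TSA and 0 passed the class difference. With no variance trend, dipyridyl with TSA gave 0 rises and 0 falls, without TSA 9 rises and 0 falls, the direct test 12 lower genes and the class difference 0. With no replicate block, that is without pairing by line, dipyridyl with TSA gave 6 rises and 0 falls, 1 gene fell without TSA, 13 were lower by the direct test and 0 passed the class difference. Both fits over all 16 arrays gave 1 fall with TSA and 31 falls without TSA. The class difference, when fitted over all 16 arrays with treatment within each CH1 class, passed for 0 genes. Adding the array series gave 186 rises and 51 falls without TSA and 0 class differences. With no filter 1 gene fell without TSA, and with quantile normalization 1 gene was lower in the class difference. Leaving out each line in turn gave 9 to 51 rises and 0 to 15 falls with TSA, 74 to 129 rises and 0 to 9 falls without TSA, 9 to 27 lower genes by the direct test, and 1 to 19 higher and 0 to 62 lower genes in the class difference, where 1 class is then a lone line assumed to vary like the other class. Leaving out the flox1 EtOH array, chosen after seeing the data, gave 98 rises and 1 fall without TSA. The median changes of the HIF lists and the dioxygenases kept their sign throughout. The differences of Mt1 and Mt2 between the settings turned sign, to 0.63 with the mean of probe sets and 0.0599 without the flox1 EtOH array, both far from the threshold. The causes were not tested. Dim genes near the signal minimum are the least precise.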
